A study of Mus musculus with 6 samples.

Results

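*Penk* and *Nts*, the genes of 2 neuropeptide precursors, were followed in whole kidneys of mouse embryos at E15.5 through every probe that the platform annotation gives to them. These were 3 of 45277 usable probes, namely 1 for *Penk* (ILMN_2719921; the older symbol is *Penk1*) and 2 for *Nts* (ILMN_2929906 and ILMN_1221615). Both genes were chosen by their lower values in the mutants of these same arrays, so their difference between genotypes is given as a description, with no test. *FoxD1;Dicer* kidneys carried an eGFP-Cre fusion knocked in at the *Foxd1* locus together with homozygous floxed *Dicer1* (*FoxD1GC;Dicer fl/fl*). This design targets the enzyme that makes mature miRNAs in the renal stroma and its descendants. The Cre line is also known to be active in podocytes, which are nephron cells, and how completely the floxed allele was recombined was not measured on these arrays. Control kidneys came from littermates without Cre. Each of 3 litters gave 1 *FoxD1;Dicer* array and 1 Control array, 6 in all, and each array held RNA pooled from 2 embryos of one genotype. The Cre driver was maintained on 129-Elite and the floxed allele on C57BL/6J, and the controls carried no Cre allele, so an effect of that allele or of its strain background cannot be told apart from one of *Dicer1* loss. Neither *Penk* nor *Nts* lies on the chromosome of *Foxd1*. *Dicer1* itself averaged 7.53 ± 0.20 in *FoxD1;Dicer* kidneys and 7.86 ± 0.23 in Control kidneys on the normalized log2 scale (SD, n = 3 arrays each), with a difference of -0.11, -0.23 and -0.64 in litters 1, 2 and 3 and a limma adjusted p of 0.86. Whether its probe reads the deleted part is not known here, so it checks the genotype labels only weakly.

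*Penk* encodes proenkephalin, which convertases cut at paired basic residues into Met- and Leu-enkephalin, ligands of the delta and mu opioid receptors. *Nts* encodes the shared precursor of neurotensin and neuromedin N, which act on neurotensin receptors and bind sortilin. Both are best known from brain, with enkephalins also abundant in the adrenal medulla and neurotensin in endocrine cells of the gut, but *Penk* RNA is also found in embryonic mesenchyme. Transcription of both genes is known to respond to cAMP and AP-1 signals.

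The window just before the start of *Nts* is shown because sites for cAMP and AP-1 signals are looked for there (RefSeq, GRCm38.p6, chr10:102490419-102490668, minus strand, 250 bases that end at the base before the start). Of the 2 genes, 1 was matched in the promoter table, and *Penk* was not. Capitals mark the motifs found.

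Nts: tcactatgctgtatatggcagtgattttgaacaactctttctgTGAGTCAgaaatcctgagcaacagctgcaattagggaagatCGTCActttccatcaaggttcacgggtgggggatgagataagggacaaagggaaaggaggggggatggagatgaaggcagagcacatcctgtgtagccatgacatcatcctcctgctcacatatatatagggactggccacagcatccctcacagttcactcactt

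The window was searched on both strands, and each share given is over 32851 RefSeq promoter windows of this length. The AP-1 site (TGANTCA), bound by Fos and Jun dimers, was found at -207 to -201 from the start, where it reads on both strands, and stood in 6.75% of windows. The core of the cAMP response element (TGACG) was found on the reverse strand at -166 to -162, and stood in 17.8% of windows. The full cAMP response element, a palindrome that contains this core (TGACGTCA), was not matched in these letters, and neither was a TATA box (TATAAA), which directs the start of transcription at some promoters. They stood in 1.55% and 12.4% of windows. The core of a glucocorticoid response element (TGTTCT), present in 16.1% of windows, was not matched either.

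*Penk* was bright on every Control array and nearer to background, though still above it, on every *FoxD1;Dicer* array. Its deposited bead signal was 192.8, 165.8 and 157.7 in *FoxD1;Dicer* kidneys of litters 1, 2 and 3, against 555.5, 453.1 and 460.9 in Control kidneys. The signals of undetected probes had medians of 98.4 to 113.6 on the *FoxD1;Dicer* arrays and of 107.7 to 113.7 on the Control arrays, so *Penk* stood 1.52 to 1.70 times above that background in the mutants and 3.99 to 5.16 times above it in controls. It was detected on all 6 arrays, that is, with a detection p-value under 0.05 against negative control beads. The groups did not overlap.

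After background correction, quantile normalization and log2 (neqc, with an offset of 16 added to the corrected signal), *Penk* was at 6.42, 6.41 and 6.37 in *FoxD1;Dicer* kidneys and at 8.76, 8.39 and 8.31 in Control kidneys of litters 1, 2 and 3. The 3 mutant pools lay within a narrow band, and the control pools were spread more widely, with litter 1 highest. The means were 6.40 ± 0.03 in *FoxD1;Dicer* kidneys and 8.49 ± 0.24 in Control kidneys (SD, n = 3 arrays each), a log2 fold change of -2.09 (standard error 0.20), which is 4.25-fold lower in the mutants on this scale. The difference was -2.34, -1.98 and -1.94 in litters 1, 2 and 3.

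*Nts* was read best by its brighter probe, ILMN_2929906. Its signal was 140.8, 134.8 and 120.7 in *FoxD1;Dicer* kidneys, against 341.8, 265.5 and 312.6 in Control kidneys of litters 1, 2 and 3. In the mutants this was 1.23 to 1.24 times the median of undetected probes, and in controls 2.34 to 3.17 times. The probe was detected on all 6 arrays, but narrowly so in the mutant of litter 1, where its detection p-value was 0.0438 and the lowest signal of any detected probe was 138.

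On the normalized log2 scale this *Nts* probe was at 5.28, 5.57 and 5.35 in *FoxD1;Dicer* kidneys and at 7.87, 7.34 and 7.59 in Control kidneys. As for *Penk*, the groups did not overlap and the control of litter 1 was the highest pool. The means were 5.40 ± 0.15 in *FoxD1;Dicer* kidneys and 7.60 ± 0.27 in Control kidneys (SD, n = 3 arrays each), a log2 fold change of -2.20 (standard error 0.23), or 4.58-fold lower in the mutants. The litters differed by -2.59, -1.76 and -2.24.

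The other *Nts* probe, ILMN_1221615, was near background throughout. Its signal was 117.9, 110.6 and 101.3 in *FoxD1;Dicer* kidneys and 120.3, 140.3 and 128.4 in Control kidneys, and it was detected on 0 of 3 mutant arrays and on 2 of 3 control arrays, with detection p-values of 0.0513, 0.0417 and 0.0459 in controls. Its normalized values were 4.66, 4.60 and 4.63 in *FoxD1;Dicer* kidneys, below the 4.92, 5.34 and 5.08 of Control kidneys. A bound on the fall was computed from the control mean and, on each mutant array, the higher of the probe's own value and the lowest value of a detected probe. It came to 1.05-fold. Since the probe was also undetected on the Control array of litter 1, which enters that mean, this is not a firm minimum. The probe did not enter the fit across probes, in which 2 of the 3 members were tested. Its direction was that of the brighter probe in each litter, and it gave almost no signal even in controls.

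**Figure D1:**
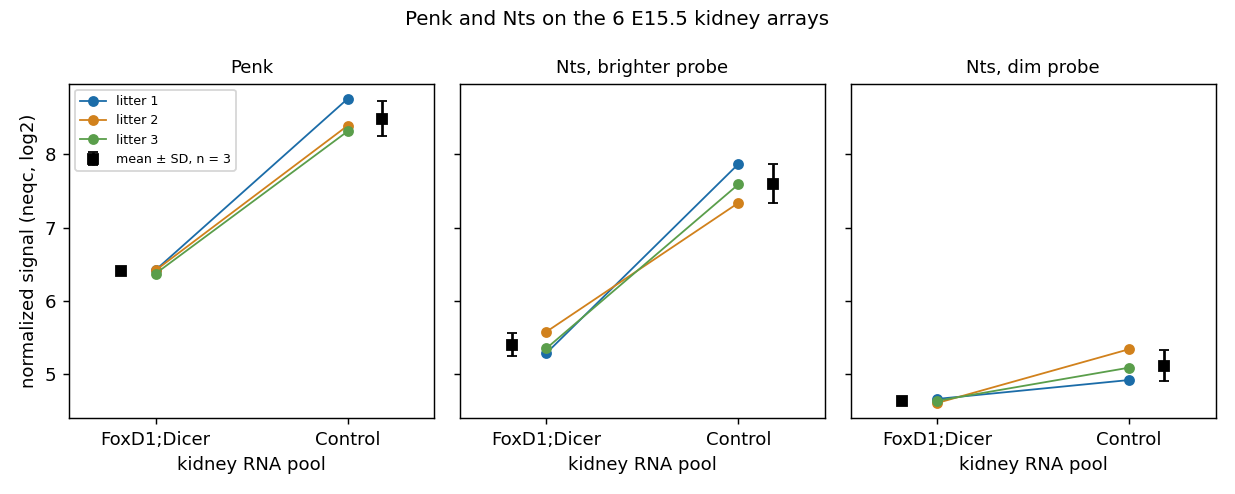
Normalized signal (neqc, log2) of the *Penk* probe and of both *Nts* probes on the *FoxD1;Dicer* (left) and Control (right) arrays, with a line for each litter and black squares for the mean ± SD of 3 arrays. *Penk* and the brighter *Nts* probe are lower in the mutant of every litter, *Penk* at 6.37 to 6.42 against 8.31 to 8.76, and the dim *Nts* probe differs little. Heights of different probes are not comparable levels.

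**Figure D2:**
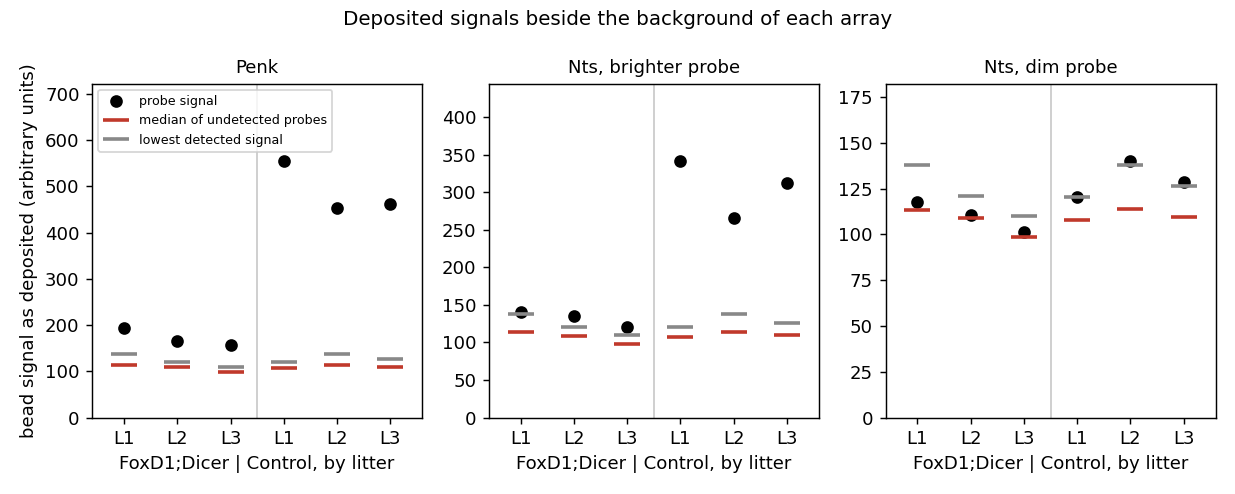
Deposited bead signal (black points) on each array, *FoxD1;Dicer* left of the grey line and Control right of it, beside the median signal of undetected probes (red) and the lowest detected signal (grey). In the mutants the brighter *Nts* probe, at 120.7 to 140.8, sits just above the lowest detected signal of its array, whereas *Penk*, at 157.7 to 192.8, keeps some distance from it.

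Among 18639 probes detected on at least 3 arrays, the brighter *Nts* probe and the *Penk* probe had the lowest and the second lowest log2 fold change. The median over these probes was -0.01, the 1st percentile was -0.76, and 58 probes, or 0.311%, lay below -1. Within single litters *Penk* ranked 5, 16 and 22 from the lowest and *Nts* 4, 31 and 10. Since large falls in these arrays chose the genes, the ranks describe their place and carry no test. Mutant arrays lay wholly below control arrays for 7.0% of the tested probes, and 13.6% were lower in the mutant of every litter, so neither pattern alone sets a gene apart.

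No probe passed the threshold that the methods name, a *B*-statistic (log odds of a change) above 0 in limma with litter in the model, which was met by 0% of probes. This share holds for the processing used here. The paper, which used lumi before limma, reports genes that were differentially expressed at E15.5. An unadjusted p-value under 0.05 from limma was reached by 2.92% of probes in the direction lower in *FoxD1;Dicer* and by 2.59% in the direction higher. Standard errors over the tested probes had a median of 0.22 (log2), and the number of arrays limits this precision.

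On the neqc scale *Penk* and *Nts* also had each other as the gene of nearest profile. Likeness was measured as the root mean square difference between log2 values over the 6 arrays, each probe first centred on its own mean, so that a small value means the same shape and the same size of difference. *Nts* was the nearest of 10473 other genes to *Penk* and *Penk* the nearest to *Nts*, at 0.14 on the log2 scale. The fall in *FoxD1;Dicer* kidneys was 0.25 larger for *Nts* in litter 1 and 0.30 larger in litter 3, and 0.22 larger for *Penk* in litter 2, so no litter order of the 2 genes held. Both genes were chosen on their genotype difference, which enters this measure, and their places depended on the value scale. With the deposited series-matrix values *Nts* was at place 4 from *Penk* and *Penk* at place 28 from *Nts*, and without background correction *Penk* was at place 4 from *Nts*.

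The genes next in likeness were *Ogn*, *Slc17a8*, *Aoc3* and *Nfix* for *Penk*, and *Ogn*, *Aoc3*, *Slc17a8* and *Acta2* for *Nts*. All were lower in the mutants of each litter, which nearness to genes chosen for a large fall all but fixed in advance. *Ogn*, the gene of the matrix proteoglycan osteoglycin, was at 7.003, 7.35 and 6.55 in *FoxD1;Dicer* kidneys and at 8.88, 8.43 and 8.87 in Control kidneys, a log2 fold change of -1.76 (standard error 0.27) and a difference of 0.32 from the *Penk* profile and 0.30 from that of *Nts*. *Slc17a8*, which encodes a vesicular glutamate transporter, and *Aoc3*, which encodes an amine oxidase of vascular smooth muscle, were each detected on all 3 Control arrays and on 0 of 3 *FoxD1;Dicer* arrays, so they were at least 2.47-fold and 2.31-fold lower. Both met the filter of 3 arrays through the Control arrays alone. *Nfix*, a nuclear factor I gene, differed by -1.25 (log2; standard error 0.22), and the smooth muscle actin gene *Acta2* by -1.30 (standard error 0.24) at the probe nearest to *Nts*. Unlike *Penk*, the 3 mutant pools of *Ogn* were spread over 6.55 to 7.35.

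**Figure D3:**
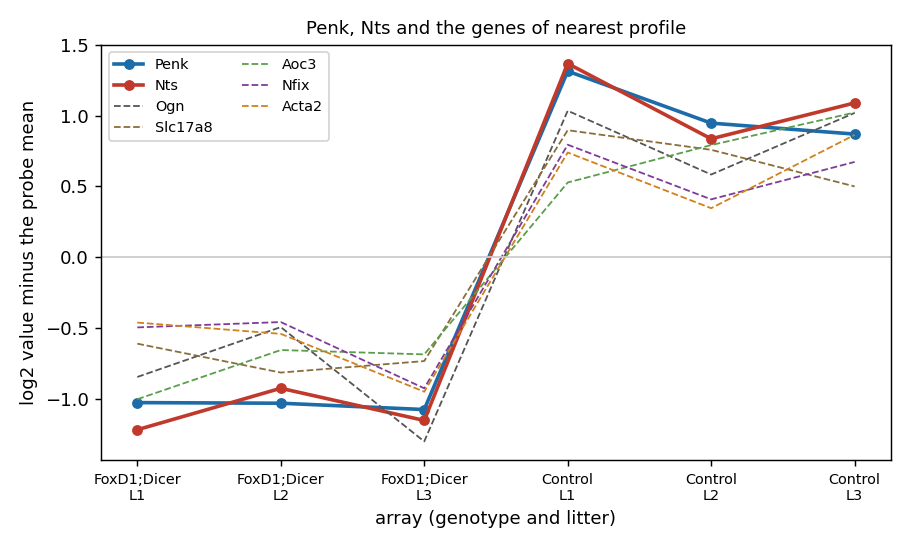
Log2 values of *Penk*, *Nts* (brighter probe, thick lines) and the genes of nearest profile (dashed), each minus its own mean, on the *FoxD1;Dicer* arrays and then the Control arrays, with lines joining the arrays of one gene. *Penk* and *Nts* run within a root mean square difference of 0.14 of each other, and the other genes show smaller falls.

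The receptors for these peptides were sparsely measured. *Oprm1* and *Oprk1*, the mu and kappa opioid receptor genes, and *Ntsr2* were detected on 0 of the 6 arrays, and *Oprd1* had no probe of that name. *Oprl1*, the nociceptin receptor gene, was detected on 2 *FoxD1;Dicer* arrays and 0 Control arrays at the brightest of its 3 probes. *Ogfr*, which encodes a Met-enkephalin binding protein unrelated to the classical opioid receptors, was at 9.13, 9.30 and 9.20 in *FoxD1;Dicer* kidneys and at 9.31, 9.53 and 9.59 in Control kidneys, a log2 fold change of -0.27 (standard error 0.19, limma adjusted p = 0.87). *Ntsr1*, the high-affinity neurotensin receptor gene, was at 7.37, 7.43 and 6.24 in *FoxD1;Dicer* kidneys and at 6.86, 7.53 and 7.40 in Control kidneys. Its groups overlapped, and the litters differed by 0.50, -0.09 and -1.15 (log2 fold change -0.25, standard error 0.32, limma adjusted p = 0.93). *Sort1*, the sortilin gene, differed by -0.11 on the log2 scale (standard error 0.21, limma adjusted p = 0.95), with -0.01 to 0.05 at its other tested probes.

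Of 11 prohormone processing genes listed, 6 were tested, 2 higher and 4 lower, and none passed. The neuroendocrine convertase gene *Pcsk1* and the related *Pcsk5* were not detected on any array at the brightest of their 2 and 3 probes. *Pcsk1n*, the gene of a convertase inhibitor, was detected on 1 *FoxD1;Dicer* array and 0 Control arrays. *Pcsk2* and *Cpd* had no probe of that name. *Furin*, a convertase of the general secretory route, differed by -0.44 (log2) (standard error 0.20, limma adjusted p = 0.86) at its brighter probe but 0.56 at another. *Pcsk6*, also a convertase gene, was at -0.24, *Scg5*, whose product is a chaperone of the convertase PC2, at -0.22 and *Cpe*, which encodes the carboxypeptidase that trims basic residues from peptide ends, at -0.05. *Ctsl*, a cathepsin gene, was at 0.09 and *Pam*, the gene of the peptide amidating enzyme, at 0.05.

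All 8 peptidase genes listed for cleaving enkephalin or neurotensin were tested, with 3 higher, 5 lower and none past an unadjusted p of 0.05 in limma. Their log2 fold changes ran from -0.58 for *Ace* to 0.25 for *Nln*, the neurolysin gene, and *Mme*, which encodes the enkephalin-degrading neprilysin, was at -0.31 (standard error 0.21). Among other opioid precursors *Pdyn*, the prodynorphin gene, was dim and overlapped between groups, with 5.31, 5.45 and 5.55 in *FoxD1;Dicer* kidneys and 4.53, 5.54 and 5.98 in Control kidneys. *Pomc*, at the brighter of its 2 probes, and *Pnoc* were detected on 0 of 6 arrays.

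Other secreted peptide precursors were mostly below detection, with 6 of the 25 listed being tested, all 6 lower, at a median log2 fold change of -0.16. Over all genes tested 56.3% were lower, at a median of -0.04. *Vip*, the vasoactive intestinal peptide gene, was at 4.999, 4.61 and 5.50 in *FoxD1;Dicer* kidneys and at 5.33, 5.85 and 5.85 in Control kidneys. It was detected on 1 mutant and on 3 control arrays, the groups overlapped, and its log2 fold change was -0.64 (standard error 0.25, unadjusted p = 0.039 and adjusted p = 0.86 in limma). *Npy* was at -0.41, *Trh* at -0.17, *Edn1* at -0.16, *Adm* at -0.10 and *Nmb* at -0.05.

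Of 13 genes for factors that respond to cAMP, growth factor or glucocorticoid signals, 7 were tested, 5 higher and 2 lower (median 0.08). *Egr1*, an immediate early zinc finger gene, was at 9.24, 9.07 and 8.92 in *FoxD1;Dicer* kidneys and at 9.54, 9.90 and 10.44 in Control kidneys, with no overlap, and its log2 fold change was -0.89 (standard error 0.27, unadjusted p = 0.014 and adjusted p = 0.86 in limma). *Crem*, whose products bind cAMP response elements, was at 6.22, 5.82 and 5.51 in *FoxD1;Dicer* kidneys and at 5.24, 5.28 and 5.06 in Control kidneys. Its log2 fold change was 0.66 (standard error 0.21, unadjusted p = 0.017 and adjusted p = 0.86 in limma), and its other tested probes gave -0.05 to 0.60. The AP-1 genes *Jun*, *Jund* and *Fos* had log2 fold changes of 0.02, 0.45 and -0.31, each with an unadjusted p above 0.05.

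Over these lists of receptors, processing enzymes, peptidases, precursors and response factors, 31 of 68 genes were tested, 11 higher and 20 lower. Their median log2 fold change was -0.10, beside -0.04 over all 10474 genes tested, and 64.5% were lower, beside 56.3% of all genes. *Egr1* and *Vip* were lower and *Crem* higher at an unadjusted p under 0.05, which is 6.45% lower and 3.23% higher of 31, beside 3.23% lower and 2.13% higher of all 10474 genes. None had *B* above 0, and the largest fall among them, that of *Egr1*, was smaller in size than that of *Penk* or *Nts* in each litter. *Penk* and *Nts* were chosen for large falls in these same arrays, which all but fixed that order in advance.

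**Figure D4:**
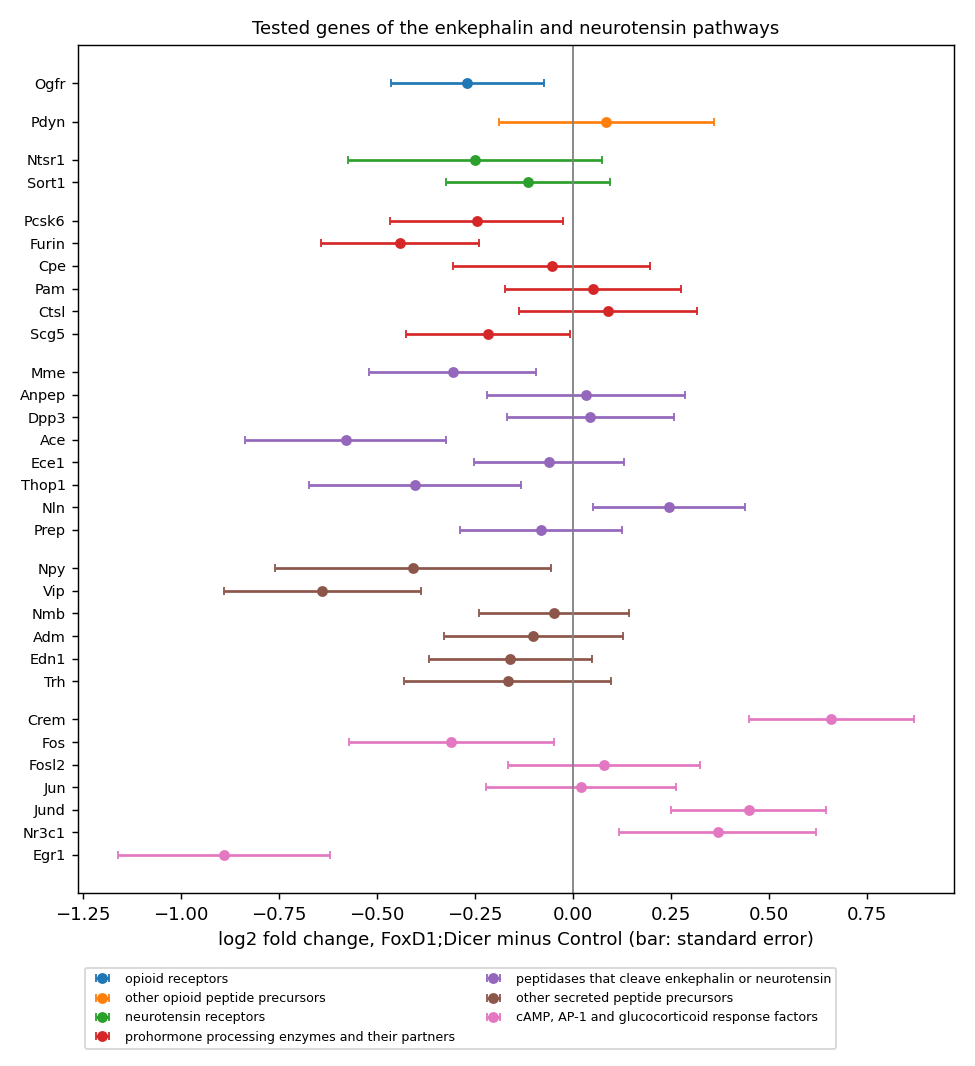
Log2 fold change (*FoxD1;Dicer* minus Control, bars for the standard error) of the 31 tested related genes, coloured by list. Beside receptors, processing enzymes and peptidases, the lists hold precursors of other peptides and general response factors such as *Egr1* and *Crem*. All lie between -0.89 (*Egr1*) and 0.66 (*Crem*). *Penk* and *Nts*, which were chosen for their large falls, were at -2.09 and -2.20.

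The RNA came from whole kidney, where fewer stromal cells and less RNA per stromal cell cannot be told apart. Of 20 renal stroma markers, 19 were tested and all 19 of these were detected on each array, with 5 higher, 14 lower and -0.13 as the median on the log2 scale, and none with *B* above 0. The share of these markers that were lower was 73.7%, beside 56.3% of all genes tested. At an unadjusted p under 0.05 in limma 3 were lower and 1 was higher, which is 15.8% and 5.26% of 19, beside 3.23% and 2.13% of all genes tested. Their summed background-corrected signal was 28256 to 30163 on *FoxD1;Dicer* arrays and 32160 to 33163 on Control arrays, so the groups did not overlap. The mean sum was 29169.5 in *FoxD1;Dicer* kidneys and 32724.9 in Control kidneys, and of this difference of -3555 the matrix genes *Col3a1* and *Dcn* gave -1418 and -740.0 and the cell cycle inhibitor gene *Cdkn1c* gave -818.3. Sums of the opioid receptor, processing enzyme and other secreted precursor lists were also lower in the mutants without overlap. Those of the other opioid precursor, neurotensin receptor, peptidase and response factor lists overlapped. Separation of a sum alone therefore sets no list apart. *Foxd1* itself was at -0.32 on the log2 scale (standard error 0.20, limma adjusted p = 0.86). Its locus held the Cre fusion in the mutants alone, so an effect of that allele on *Foxd1* cannot be told apart from fewer stromal cells. The 3 lower markers were *Dkk1*, the gene of a secreted Wnt inhibitor, at -1.17, *Lum*, which encodes the matrix proteoglycan lumican, at -0.78 and *Col3a1* at -0.51, and the higher one was the Wnt ligand gene *Wnt4* at 0.87 (limma adjusted p = 0.71 for *Dkk1* and 0.86 for the others). The stromal transcription factor genes *Meis1* and *Meis2* were at -0.08 and -0.05 at their brightest tested probes. The other tested probes gave -0.62 for *Meis1* and -0.06 to 0.09 for *Meis2*. They gave -0.46 for *Lum*, -0.43 for *Col3a1*, -1.14 to -0.35 for *Dcn* and 0.65 for *Wnt4*. The growth factor receptor genes *Pdgfra* and *Pdgfrb* were at 0.06 and 0.33. The part of the stroma's share of the tissue in the values of *Penk* and *Nts* was not tested.

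Adrenal chromaffin cells and nerves, which lie close to the kidney, can also make neuropeptides. Of 12 measured adrenal markers 1 to 2 were detected on *FoxD1;Dicer* arrays and 2 to 5 on Control arrays. Their summed corrected signal, undetected probes included, was 122 to 138 on *FoxD1;Dicer* arrays and 144 to 190 on Control arrays, without overlap. As for the stroma sum, such separation alone does not set this list apart. Of these markers 10 were too rarely detected to be tested. The 2 tested ones, *Pnmt* and *Phox2a*, had log2 fold changes of 0.08 and -0.02. The part of adrenal tissue in the values of *Penk* and *Nts* was not tested. *Th*, *Chgb*, *Cyp17a1* and *Hsd3b1* were detected on 0 of 6 arrays, and *Dbh* on 1, the Control array of litter 3. At their brightest probes *Star*, *Cyp11a1*, *Cyp21a1* and *Nr5a1* were detected on the Control array of litter 1, and *Nr5a1* also on that of litter 3. None of these was detected on a *FoxD1;Dicer* array. *Chga* was detected on the litter 2 array of each genotype. *Pnmt* was detected on 2 arrays of each genotype, and *Phox2a* on 2 *FoxD1;Dicer* arrays and 1 Control array. Of 10 measured neuron and nerve markers, 2 to 4 were detected on *FoxD1;Dicer* arrays and 3 to 4 on Control arrays, and their sums overlapped, at 265 to 424 on *FoxD1;Dicer* arrays and 345 to 415 on Control arrays. The 3 of them that were tested were all lower, at a median log2 fold change of -0.19, beside 56.3% lower and -0.04 over all genes tested. *Stmn2*, the gene of a neuronal microtubule regulator, was at 5.01, 4.83 and 4.98 in *FoxD1;Dicer* kidneys and at 5.28, 5.64 and 5.51 in Control kidneys, without overlap, and was detected on 1 mutant and 3 control arrays. It differed by -0.53 (standard error 0.21, unadjusted p = 0.039 and adjusted p = 0.86 in limma), and the part of nerve tissue in the values of *Penk* and *Nts* was not tested. The pools also differed in *Xist*, a transcript of the inactive X chromosome, by -5.10 in litter 1 and by 4.82 and 5.03 in litters 2 and 3. The part of this difference between pools in the values of *Penk* and *Nts* was not tested.

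Both genes stayed lower under each of the 10 alternatives that gave a value, but the size of the difference moved. In the series-matrix values deposited by the authors, *Penk* was at 7.55, 7.55 and 7.51 in *FoxD1;Dicer* kidneys and at 8.69, 8.42 and 8.39 in Control kidneys, a log2 fold change of -0.96, and the brighter *Nts* probe was at 7.31, 7.36 and 7.31 in *FoxD1;Dicer* kidneys and at 8.13, 7.87 and 7.99 in Control kidneys, one of -0.67. *Nts* had the larger fall on the main scale and *Penk* the larger one in these values, so their order in size differed between the scales. In the series-matrix values *Penk* ranked 3 and *Nts* 19 from the lowest of the tested probes.

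**Figure D5:**
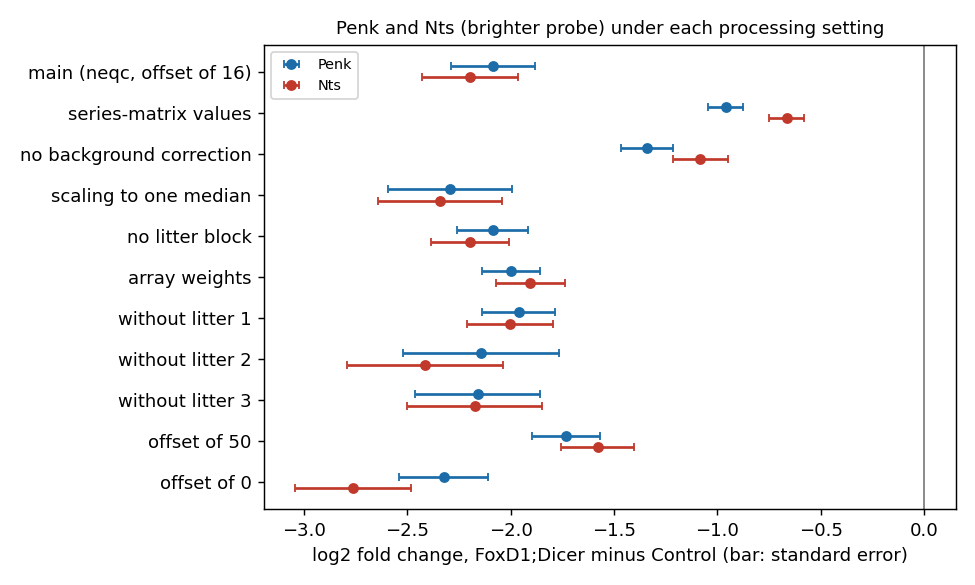
Log2 fold change (*FoxD1;Dicer* minus Control, bars for the standard error) of *Penk* and of the brighter *Nts* probe under the main and 10 other settings. All values are below 0, from -2.32 to -0.96 for *Penk* and from -2.76 to -0.67 for *Nts*, and the falls are smallest in the series-matrix values.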

How the data were processed

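RNA of whole E15.5 kidneys was measured on Illumina MouseWG-6 v2.0 arrays. The deposited intensity is the bead signal of each probe, with neither background subtraction nor normalization by the authors, and a deposited detection p-value accompanies it. The scanner software is not named in the sources used. The authors also deposited log2 values in the series matrix. Each column rose strictly with the signals of its array (Spearman correlation 1), with medians of 7.23 to 7.24. Higher is brighter and genes were not centred, and the exact transformation (the methods name lumi) stays unknown.

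Of 45281 entries, 2 lacked an identifier and 2 repeated another entry, and these were dropped. Symbols were updated through gene identifiers, and 34881 probes had 1 gene, 18 several and 10378 were unnamed here. Signals were processed by neqc (normexp from the detection p-values, offset of 16, quantile, log2). Probes detected (p under 0.05) on 3 or more arrays were fitted in limma (lmFit, eBayes) on genotype and litter (prior share 0.01, Benjamini-Hochberg adjustment). This script was tested on simulated data. lumi was not used here. A gene of a list entered through its tested probe of highest mean. Where no probe of it was tested, its probe of highest mean was used, and its detection counts cover that probe alone. Summed signals are normalized values taken back from log2 less the offset.

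By the labels, arrays of one number share a litter, which therefore entered as a block. Deviations of same-litter arrays from their genotype means correlated across probes at -0.287, -0.0189 and -0.123. Where pools come from separate embryos, p-values set the genotype difference against its spread between the 3 litters, which limma draws towards that of other probes.

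The members and lists were chosen with earlier results of these data known. The text names all *Penk* and *Nts* probes, receptors and processing enzymes, other list members with an unadjusted p under 0.05, the 5 nearest profiles, and *Dicer1*, *Foxd1* and *Xist* as checks. Other list members (peptidases, peptide precursors, AP-1 genes and markers) were named after their values were seen. A planned count of peptides in the precursor proteins was not made. The fits used limma 3.58.1 in R 4.3.3, the tables were read by data.table (version 1.17.8), and plots came from matplotlib 3.10.9 under Python 3.11.15.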

Additional observations from a re-analysis of the deposited data

How the results depend on the processing

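*Penk* and *Nts* kept their direction under all 10 alternatives, and the dim *Nts* probe did so too. Their log2 fold changes moved by more than the spread between litters with the series-matrix values (-0.96 for *Penk*, -0.67 for *Nts*), with no background correction (-1.34 and -1.08), and with an offset of 50 (-1.73 and -1.58) or of 0 (-2.32 and -2.76) in place of 16; the 2 offsets were chosen after seeing the data. These choices act on low signals by construction. Leaving out 1 litter gave -2.16 to -1.96 for *Penk* and -2.41 to -2.002 for *Nts*. Without the litter block both values were unchanged by construction, and 34 probes had *B* above 0 in limma, where none had it with litter in the model (1028 with an unadjusted p under 0.05). That number was 10 with litter as a random block, 18 with an intensity trend, 5 with no background correction, 117 with scaling to one median and 249 with array weights. It was 33 without litter 1, 35 without litter 2 and 0 without litter 3, the cause of which was not tested. Probes with an unadjusted p under 0.05 then numbered 1863 with scaling to one median, 5851 with array weights, 2396 with no filter and 551 to 3923 without 1 litter. Of the related genes, 1 (*Egr1*) had *B* above 0, only with scaling to one median, which moved the median of all tested probes to -0.22. The strict filter, a detection p-value under 0.01 on all 6 arrays, left out *Nts*. *Nts* signals in the mutants lay near background, which limits how well the size of its fall is known.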
